A study of Mus musculus with 12 samples.

Results

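The genes described here are 33 genes that run or control autophagy and the lysosome, chosen by name from a list of initiation, nucleation, conjugation, receptor, TFEB family and lysosomal membrane genes. Each was represented by its brightest probe set, the one with the highest mean over all arrays, and all 33 were among the 13952 genes tested. The array carries 79 probe sets for them, with more than 1 for 25 of the 33. In autophagy a double membrane closes around cytoplasm and delivers it to the lysosome for breakdown. A kinase complex starts the membrane, a lipid kinase complex and its lipid-binding effectors shape it, conjugating enzymes attach small Atg8 proteins to it, and receptors tether cargo to those proteins. TFEB and its relatives are transcription factors of lysosomal and autophagy genes, and in liver autophagy removes protein aggregates, lipid and damaged organelles during fasting and stress.

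The study compared livers of Ire1α conditional null and control mice with and without endoplasmic reticulum (ER) stress. Ire1α, encoded by Ern1, is a sensor of unfolded protein in the ER membrane. Tunicamycin, a blocker of N-linked glycosylation that leaves proteins unfolded in the ER, was injected intraperitoneally at 2 µg per g of body weight, and livers were taken 8 hours later. The 4 groups were null mice given tunicamycin (titled Fe-CRE+Tm), control mice given tunicamycin (Fe+CRE+Tm), null mice given a dextrose vehicle (Fe-CRE+) and control mice given vehicle (Fe+CRE+), each with 3 arrays that the labels call biological replicates. All were C57Bl/6J mice of 3 months, and both genotypes carry the label CRE+. The labels name neither the promoter that drives Cre nor the part of Ern1 that is removed.

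Values are normalized log2 intensities of a probe set, which compare arrays but not one probe set with another, and each change is a log2 fold change with its standard error (±) from 1 limma fit of all 12 arrays. A gene was called when its Benjamini-Hochberg adjusted p over all genes was under 0.05. Fewer cells of a type and less RNA per cell cannot be told apart in whole tissue, and with 3 arrays a group the precision of each value is limited.

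The 12 arrays had trimmed mean intensities between 227 and 302, and none of the 5 Ern1 probe sets passed the test between the genotypes (limma, smallest adjusted p = 0.678 with tunicamycin and 0.951 with vehicle). Whether those probe sets lie in the deleted part is not known, so Ern1 did not check the genotype labels. The 7 hepatocyte markers tested gave 0 calls in either tunicamycin response, with medians of 0.04 in null livers and 0.01 in control livers. The second null tunicamycin array carried kidney transcripts: 9 of 12 kidney markers lay over 1 (log2) above all other arrays, and their summed intensity was 31535, against 456 to 798 in the other 11. Its bile duct markers summed to 1031, against 82 to 187. Of 12 Kupffer cell and macrophage markers, 2 fell with tunicamycin in null livers and 1 in control livers (medians -0.52 and -0.48). Between genotypes 0 were called, with medians, null against control, of -0.65 with tunicamycin and -0.41 with vehicle. The summed intensity of these markers was 5548 to 11942 in null tunicamycin livers, 9478 to 12897 in control tunicamycin livers, 6904 to 11326 in null vehicle livers and 9155 to 15128 in control vehicle livers. The 5' to 3' ratio of the actin control probe sets, a measure of RNA integrity, averaged 0.309 ± 0.116 in null tunicamycin livers, 0.328 ± 0.053 in control tunicamycin livers, 0.50 ± 0.179 in null vehicle livers and 0.757 ± 0.323 in control vehicle livers (SD, n = 3 each). With tunicamycin it was lower by 0.191 in null livers (two-sided exact permutation p = 0.2) and by 0.429 in control livers (p = 0.1, the smallest that 3 against 3 allows). The part of these differences in the results was not tested.

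The promoters of Atg13, Mitf, Sqstm1 and Atg14 are shown because these 4 genes had the smallest p values of the control liver response. Windows run from 250 bases before to 50 bases after an annotated RefSeq start (GRCm38.p6), and capitals mark matches to a motif. Atg13 (chr2:91710543-91710842, minus strand) and the middle of 3 Mitf starts (chr6:97929567-97929866, plus strand) hold TGACNNNGC, read on either strand. The other Mitf windows hold none of the motifs searched and are not printed here. Atg14 (chr14:47568385-47568684, minus strand) holds an E-box, and Sqstm1 (chr11:50210771-50211070, minus strand) holds none of the motifs searched.
Atg13: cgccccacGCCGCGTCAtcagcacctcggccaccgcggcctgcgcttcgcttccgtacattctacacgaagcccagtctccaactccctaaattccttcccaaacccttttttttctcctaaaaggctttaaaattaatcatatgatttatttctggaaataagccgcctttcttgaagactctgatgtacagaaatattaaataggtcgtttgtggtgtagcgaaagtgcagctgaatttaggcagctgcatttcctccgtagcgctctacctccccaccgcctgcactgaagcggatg
Mitf: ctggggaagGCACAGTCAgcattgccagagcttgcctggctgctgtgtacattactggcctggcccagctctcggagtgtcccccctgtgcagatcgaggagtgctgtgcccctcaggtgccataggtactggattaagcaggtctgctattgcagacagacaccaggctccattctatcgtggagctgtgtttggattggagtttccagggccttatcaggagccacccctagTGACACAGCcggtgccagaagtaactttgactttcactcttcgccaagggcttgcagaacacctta
Sqstm1: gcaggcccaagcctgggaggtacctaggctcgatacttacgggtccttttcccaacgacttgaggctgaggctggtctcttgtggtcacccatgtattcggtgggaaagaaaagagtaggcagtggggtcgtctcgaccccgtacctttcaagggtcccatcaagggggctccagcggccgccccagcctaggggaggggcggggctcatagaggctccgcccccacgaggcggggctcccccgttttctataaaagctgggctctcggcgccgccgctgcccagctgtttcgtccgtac
Atg14: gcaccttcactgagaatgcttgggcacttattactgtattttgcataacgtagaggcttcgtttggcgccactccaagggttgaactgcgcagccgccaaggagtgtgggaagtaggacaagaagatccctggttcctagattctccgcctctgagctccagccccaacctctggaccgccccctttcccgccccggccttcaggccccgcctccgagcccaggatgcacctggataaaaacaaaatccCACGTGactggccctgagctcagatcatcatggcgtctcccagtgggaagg
The antioxidant response element TGACNNNGC was present in 4 of the 36 member windows, for Atg13, Mitf, Map1lc3b and Ulk2. It was present in 12.4% of all 32851 RefSeq windows. The E-box CACGTG was present in 5 of the 36, for Atg7, Lamp1, Atg5, Atg14 and Atg3, and in 7.15% of all windows. The CLEAR element, which extends the E-box on both sides and is the site named for TFEB, was found in 0 of the 36 member windows and in 0.326% of all. The C/EBP-ATF response element TGATGNAA (3.97% of all) and the ER stress element (0.119% of all) were also found in 0. Both strands were searched, and 28 of the 33 members have a window in the table.

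Tunicamycin changed a minority of the autophagy genes, and not in one direction. In null livers 6 of the 33 rose, 6 fell and 21 did not pass, with a median change of -0.06 against -0.07 over all genes. The 36.4% called compare with 17.8% of all genes, of which 7.98% rose and 9.79% fell. In control livers 5 rose, 4 fell and 24 did not pass, with a median of 0.07 against -0.11, and 27.3% were called against 26.2% of all genes, of which 12.2% rose and 14% fell. Both responses share Atg13, Sqstm1, Mitf and Atg4d among the rises and Atg14, Atg7, Atg16l1 and Lamp2 among the falls, and 13 genes were called in at least 1 genotype. With array medians centred in place of quantile normalization, 6 rose and 1 fell in null livers and 7 rose and 1 fell in control livers. The fall was Atg14 in each. That scaling called 14.3% and 23.8% of all genes. It moved calls upward over the whole array: 64.5% of all called genes were higher in null livers and 64.1% in control livers. With quantile normalization these were 44.9% and 46.7%. In a fit that carries the actin ratio as covariate, 4 of the 33 were called in null livers and 3 in control livers. Of all genes 13.2% and 13.1% were called in that fit. In control livers the ratio ran from 0.295 to 0.389 with tunicamycin and from 0.454 to 1.097 with vehicle, without overlap. That fit can therefore not fully separate the ratio from the treatment there.

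The count in null livers depended on single arrays. It was 2 of 33 without null tunicamycin replicate 3, where 11.9% of all genes were called, and 4 without null vehicle replicate 3 (12.6% of all genes). It was 7 without null tunicamycin replicate 1 (15% of all genes) and 7 without control tunicamycin replicate 2 (15.5%). Without null tunicamycin replicate 2, the array with kidney transcripts, 9 were called, against 16.1% of all genes. Atg16l1, Atg4c, Gabarapl1 and Mitf no longer passed and Atg4a newly did (-0.76, limma adjusted p = 0.0326). The count in control livers was 5 without control tunicamycin replicate 2, where 18.9% of all genes were called. Each fit that left out 1 array chose the brightest probe set of a gene anew.

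**Figure D1:**
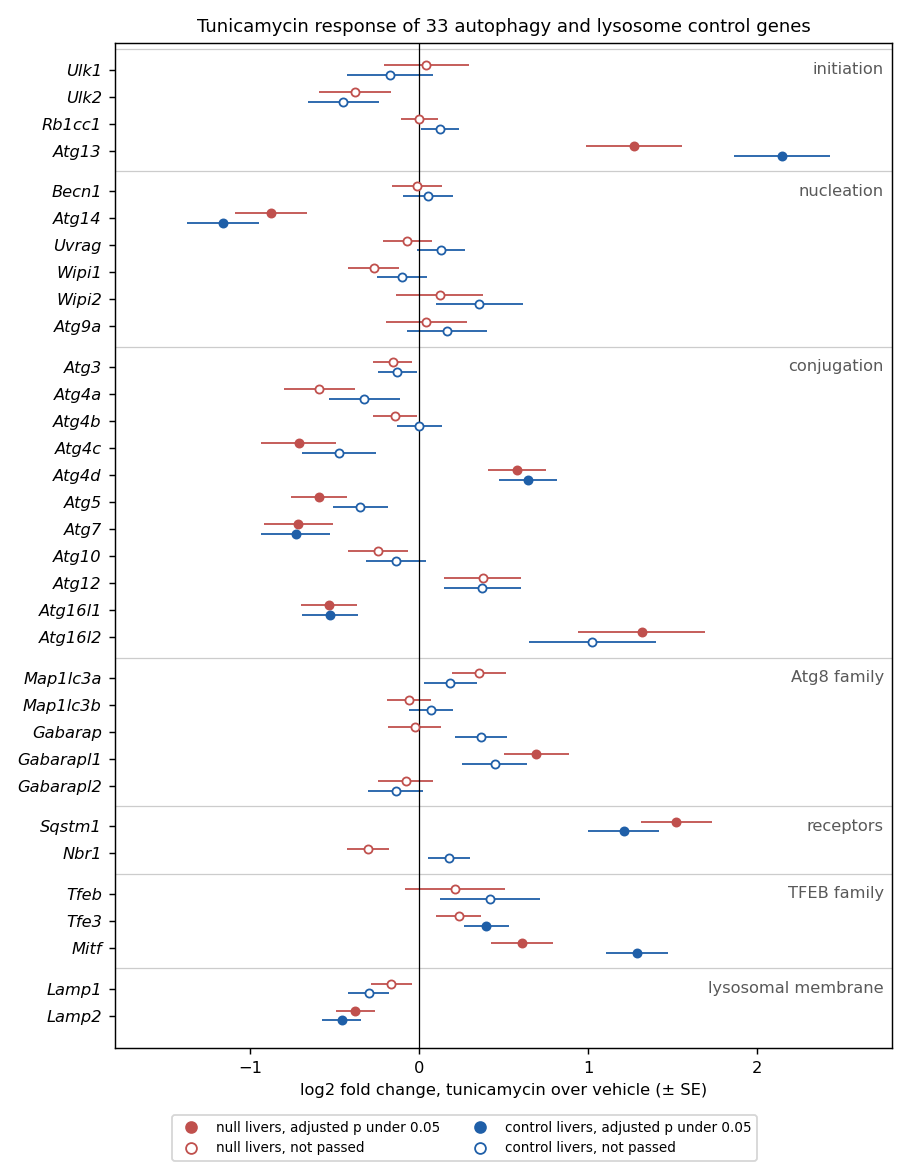
Log2 fold change of tunicamycin over vehicle (x axis, ± SE) for the 33 genes, grouped by role, with null livers in red above control livers in blue and filled points at adjusted p under 0.05. Sqstm1 lies farthest right in null livers, at 1.52, and Atg13 in control livers, at 2.15, and Atg14 lies farthest left in both, at -0.87 in null and -1.16 in control livers.

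The initiation complex joins the kinases Ulk1 and Ulk2 to Atg13, the subunit that binds them, and to the scaffold Rb1cc1. Atg13 was the member that changed most in control livers. Its normalized log2 intensity was 8.38, 8.47 and 8.60 in null tunicamycin livers and 9.41, 9.73 and 9.89 in control tunicamycin livers, against 6.42, 7.82 and 7.40 in null vehicle livers and 7.48, 7.38 and 7.73 in control vehicle livers. Every tunicamycin array lay above every vehicle array, and the control tunicamycin arrays lay above the null ones. On the deposited scale the means were 374 ± 70 in null tunicamycin livers, 894 ± 111 in control tunicamycin livers, 137 ± 72 in null vehicle livers and 158 ± 16 in control vehicle livers (SD, n = 3 each). Atg13 rose by 1.27 ± 0.28 in null livers (limma adjusted p = 0.00968) and by 2.15 ± 0.28 in control livers (adjusted p = 0.000184). Both calls held under all 29 alternatives.

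The other 3 initiation genes passed in neither genotype. Ulk1 changed by 0.04 in null livers and -0.17 in control livers, and Rb1cc1 by 0.00 and 0.12. The brightest Ulk2 probe set gave -0.38 and -0.45. A dimmer one, 1448858_at, fell in a fit over all 34945 probe sets with a single gene symbol, by 0.79 ± 0.19 in null livers (limma adjusted p = 0.0220) and by 0.84 ± 0.19 in control livers (adjusted p = 0.00985), and 1417846_at fell by 0.55 ± 0.17 in control livers (adjusted p = 0.0480). None of these 3 Ulk2 calls held with array medians centred.

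Nucleation uses a lipid kinase complex that contains Becn1 and either Atg14, which directs it to the forming autophagosome, or Uvrag. The subunit Atg14 was the only one of the 6 nucleation genes that fell by its brightest probe set. Its values were 7.77, 7.65 and 7.40 in null tunicamycin livers and 6.88, 7.37 and 7.51 in control tunicamycin livers, against 8.45, 8.47 and 8.51 in null vehicle livers and 7.97, 8.51 and 8.76 in control vehicle livers. All 6 tunicamycin arrays lay below all 6 vehicle arrays. Atg14 fell by 0.87 ± 0.21 in null livers (limma adjusted p = 0.0151) and by 1.16 ± 0.21 in control livers (adjusted p = 0.00183). The null call was lost without null tunicamycin replicate 3, and the control call in the fit that carries the actin ratio as covariate.

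Becn1 changed by -0.01 in null livers and 0.05 in control livers, Uvrag by -0.07 and 0.13, and Atg9a, a membrane protein of the vesicles that seed the autophagosome, by 0.04 and 0.17. None of these passed. Wipi2, which binds the lipid made by the kinase and recruits Atg16l1, gave 0.12 and 0.36 by its brightest probe set, while its probe set 1428882_at rose by 0.64 ± 0.18 in control livers (limma adjusted p = 0.0358).

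Wipi1, the relative of Wipi2 that binds the same lipid, gave answers that differed between its 6 probe sets. The brightest, 1439060_s_at, changed by -0.27 ± 0.15 in null livers and -0.10 ± 0.15 in control livers and passed in neither. Probe set 1438709_at read 7.22, 7.44 and 7.48 in null tunicamycin livers and 8.45, 8.62 and 8.19 in control tunicamycin livers, against 6.56, 6.90 and 6.64 in null vehicle livers and 6.28, 6.20 and 5.65 in control vehicle livers. The 4 groups did not overlap. In the fit over all probe sets it rose by 0.68 ± 0.19 in null livers (limma adjusted p = 0.0480) and by 2.38 ± 0.19 in control livers (adjusted p = 8.21e-06).

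Of the other Wipi1 probe sets, 1456624_at rose by 1.61 ± 0.27 (limma adjusted p = 0.0017) and 1424917_a_at by 1.21 ± 0.26 (adjusted p = 0.00709) in control livers, and neither passed in null livers (0.63 and 0.28). The control calls of these 2 were lost in the fit that carries the actin ratio as covariate. The remaining pair passed in neither genotype. The files do not say which transcripts each probe set reads, so the gene-level value of Wipi1 rests on the choice of probe set. Over all 79 member probe sets, 5 rose and 3 fell in null livers, where 8.61% of all probe sets were called (4.23% higher, 4.39% lower), and 9 rose and 5 fell in control livers, where 14.7% were called (7.67% higher, 7.03% lower). The count in control livers was 8 without control tunicamycin replicate 2. The 8 in null livers became 3 without null vehicle replicate 3, 4 without null tunicamycin replicate 3, and 5 without null tunicamycin replicate 2 or control tunicamycin replicate 2 or 3.

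**Figure D2:**
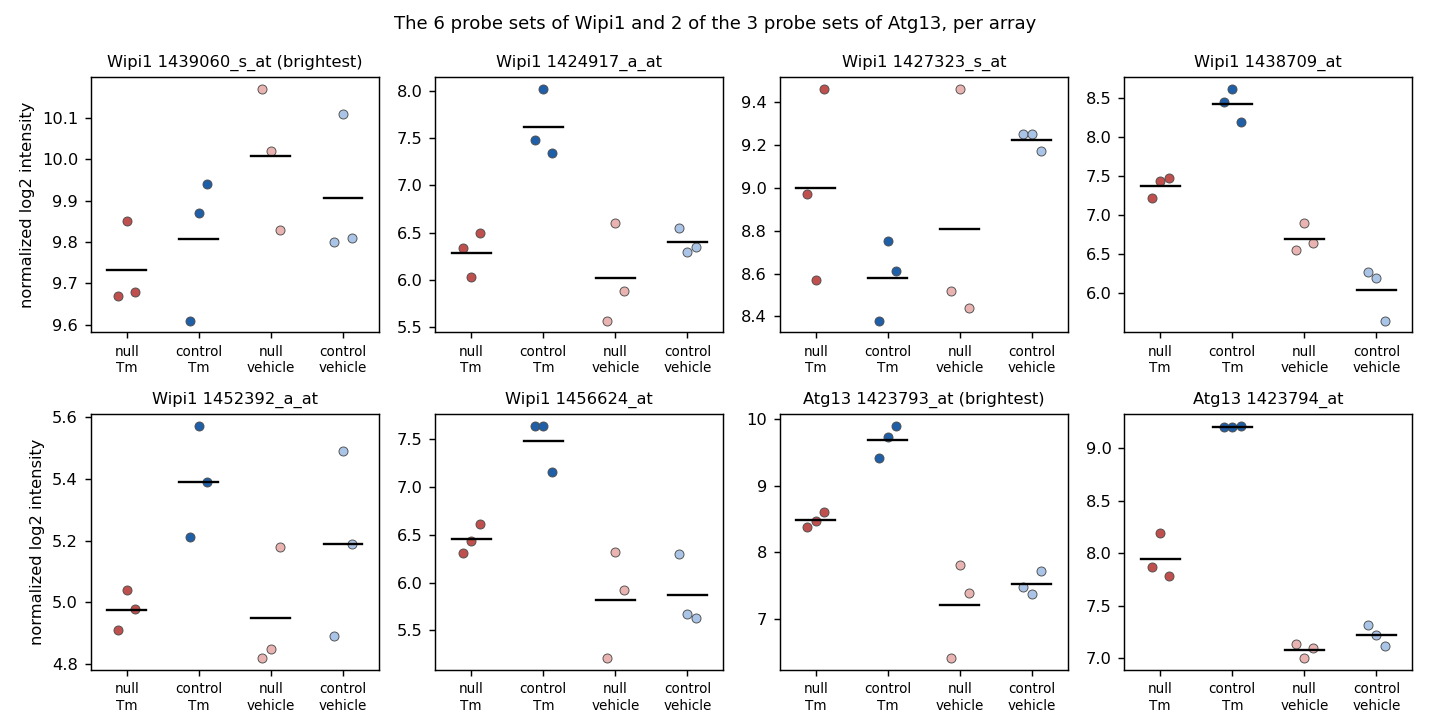
Normalized log2 intensity (y axis, its own range in each panel) of the 6 Wipi1 probe sets and 2 Atg13 probe sets in each array (points) with group means (lines), Tm standing for tunicamycin. The brightest Wipi1 probe set overlaps between all groups, whereas 1438709_at separates them, from 7.22 to 7.48 in null tunicamycin livers and 8.19 to 8.62 in control tunicamycin livers.

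Conjugation attaches Atg8 proteins to lipid. Atg7 activates both ubiquitin-like proteins of the pathway, Atg3 and Atg10 transfer them, the Atg4 proteases trim and release Atg8 proteins, and Atg12 joined to Atg5 and Atg16l1 sets the place of the reaction. Of these 11 genes 2 rose and 4 fell in null livers, where 17.8% of all genes were called. In control livers 1 rose and 2 fell, a share near the 26.2% of all genes called there. The activating enzyme Atg7 read 8.42, 8.33 and 8.01 in null tunicamycin livers and 7.96, 8.10 and 8.34 in control tunicamycin livers, against 8.56, 9.29 and 9.05 in null vehicle livers and 8.82, 8.67 and 9.10 in control vehicle livers. Every tunicamycin array was below every vehicle array, and Atg7 fell by 0.71 ± 0.20 in null livers (limma adjusted p = 0.0319) and by 0.73 ± 0.20 in control livers (adjusted p = 0.0203).

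Atg16l1 fell by 0.53 ± 0.17 in each genotype (limma adjusted p = 0.0446 in null and 0.0350 in control livers). Atg16l2, a paralogue of Atg16l1 whose part in autophagy is less clear, read 7.59, 6.57 and 8.38 in null tunicamycin livers and 6.37, 6.47 and 7.05 in control tunicamycin livers, against 5.85, 6.18 and 6.55 in null vehicle livers and 5.73, 5.82 and 5.26 in control vehicle livers. The null tunicamycin arrays were spread widely, and the lowest of them lay just above the highest null vehicle array. Atg16l2 rose by 1.32 ± 0.38 in null livers (limma adjusted p = 0.0322) and gave 1.03 ± 0.38 in control livers, where it did not pass (adjusted p = 0.0652). The difference between those responses, 0.29, did not pass either.

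The Atg4 proteases did not move together. Atg4d rose by 0.58 ± 0.17 in null livers (limma adjusted p = 0.0368) and by 0.65 ± 0.17 in control livers (adjusted p = 0.0155), with the tunicamycin arrays above the vehicle arrays within each genotype. Atg4c fell by 0.71 ± 0.22 in null livers (adjusted p = 0.0446) and gave -0.47 in control livers (adjusted p = 0.139). Atg4a gave -0.59 and -0.32, and Atg4b -0.14 and 0.00, and these did not pass.

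By its brightest probe set Atg5 fell by 0.59 ± 0.16 in null livers (limma adjusted p = 0.0279) and gave -0.35 in control livers (adjusted p = 0.143). Its dimmer probe sets overlapped between treatments in null livers. There 1418236_s_at read 8.70, 8.74 and 9.28 with tunicamycin against 8.56, 9.17 and 9.04 with vehicle. Probe set 1418235_at read 7.92, 7.63 and 8.57 against 7.54, 8.44 and 8.12. Atg12, the partner of Atg5, gave 0.38 in null and 0.37 in control livers, Atg10 gave -0.24 and -0.14, and Atg3 gave -0.16 and -0.13, none of which passed. With array medians centred, none of the falls of Atg5, Atg7, Atg16l1 and Atg4c was called.

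**Figure D3:**
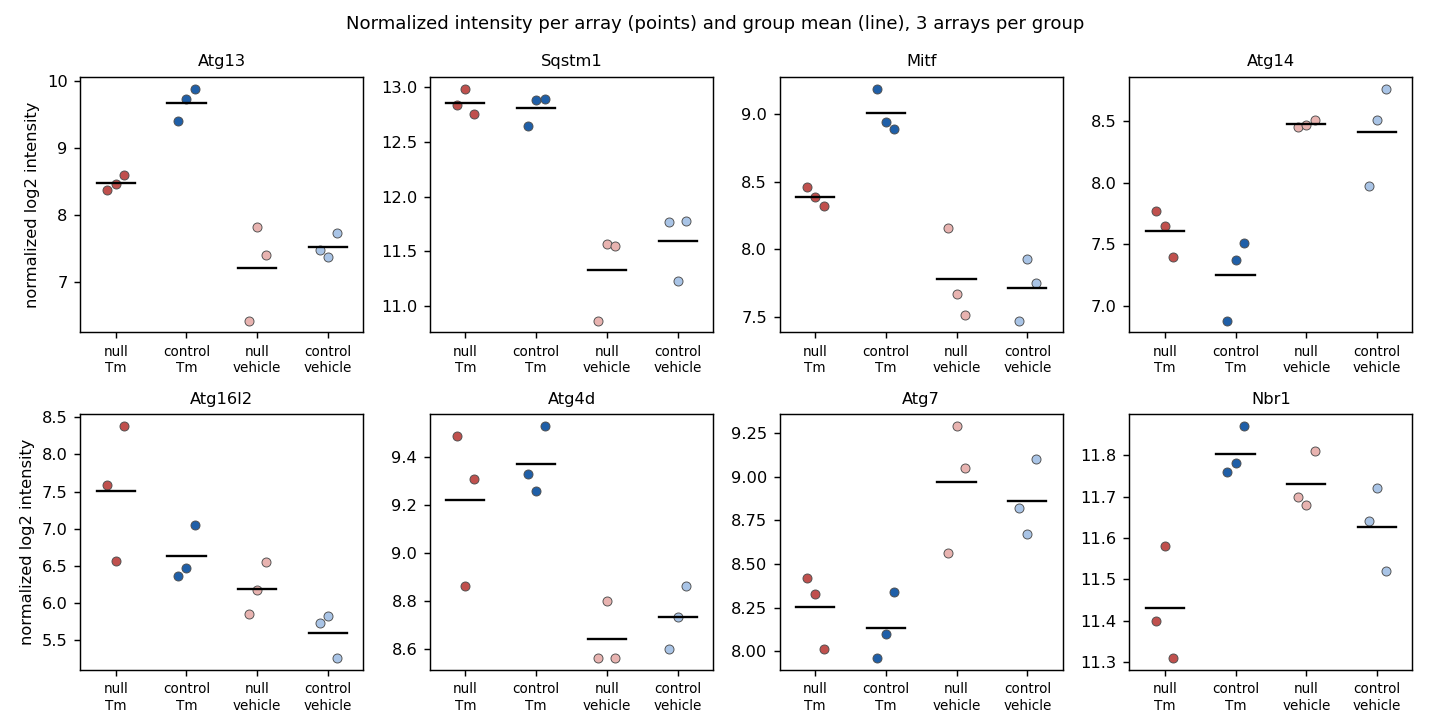
Normalized log2 intensity (y axis, its own range in each panel) of 8 genes by their brightest probe set in each array (points) with group means (lines), Tm standing for tunicamycin. Atg13, Sqstm1 and Mitf are higher and Atg14 and Atg7 lower in all tunicamycin arrays than in all vehicle arrays, and for Atg13 the control tunicamycin arrays, at 9.41 to 9.89, lie above the null ones, at 8.38 to 8.60.

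The Atg8 family coats the autophagosome membrane and binds cargo receptors. Gabarapl1 read 12.34, 12.90 and 12.64 in null tunicamycin livers and 12.30, 12.39 and 12.62 in control tunicamycin livers, against 11.63, 12.27 and 11.89 in null vehicle livers and 12.05, 11.84 and 12.07 in control vehicle livers. It was the 1 member of 5 that passed, rising by 0.69 ± 0.19 in null livers (limma adjusted p = 0.0273), and it gave 0.45 ± 0.19 in control livers (adjusted p = 0.110). Map1lc3b, which encodes the LC3 protein most used to follow autophagosomes, gave -0.06 and 0.07, and Map1lc3a gave 0.36 and 0.19. Gabarap gave -0.03 and 0.37, and Gabarapl2 gave -0.08 and -0.14. None of these passed, and Gabarap and Gabarapl1 passed in control livers with array medians centred.

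Of the cargo receptors, Sqstm1, which encodes the ubiquitin-binding protein p62, changed most in null livers. Its values were 12.83, 12.98 and 12.75 in null tunicamycin livers and 12.64, 12.88 and 12.89 in control tunicamycin livers, against 10.87, 11.57 and 11.55 in null vehicle livers and 11.77, 11.23 and 11.78 in control vehicle livers. All tunicamycin arrays lay above all vehicle arrays, and the genotypes overlapped within each treatment. On the deposited scale Sqstm1 averaged 7620 ± 186 in null tunicamycin livers and 7550 ± 634 in control tunicamycin livers, against 2392 ± 693 in null vehicle livers and 2964 ± 619 in control vehicle livers (SD, n = 3 each). It rose by 1.52 ± 0.21 in null livers (limma adjusted p = 0.000529) and by 1.21 ± 0.21 in control livers (adjusted p = 0.00119), and both calls held under all 29 alternatives.

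Nbr1, a receptor with a domain layout like that of p62, gave -0.30 ± 0.12 in null livers (limma adjusted p = 0.121) and 0.18 ± 0.12 in control livers (adjusted p = 0.334). It read 11.40, 11.58 and 11.31 in null tunicamycin livers against 11.70, 11.68 and 11.81 in null vehicle livers, and 11.76, 11.78 and 11.87 in control tunicamycin livers against 11.64, 11.72 and 11.52 in control vehicle livers. The tunicamycin arrays lay below the vehicle arrays in null livers and above them in control livers, and the difference between the responses, -0.48 ± 0.18, did not pass (adjusted p = 0.386 over genes). The other Nbr1 probe set, 1451897_a_at, overlapped in both genotypes. It read 8.10, 8.68 and 8.08 in null tunicamycin livers against 7.74, 8.87 and 8.88 in null vehicle livers. In control livers it read 8.71, 9.12 and 9.13 with tunicamycin against 9.44, 8.34 and 8.91 with vehicle.

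In the TFEB family, Mitf, known best from pigment cells, changed most. Mitf read 8.46, 8.39 and 8.32 in null tunicamycin livers and 9.19, 8.94 and 8.89 in control tunicamycin livers, against 8.16, 7.67 and 7.51 in null vehicle livers and 7.47, 7.93 and 7.75 in control vehicle livers. The groups were ordered with control tunicamycin livers highest, null tunicamycin livers next and both vehicle groups overlapping below them. Mitf rose by 0.61 ± 0.18 in null livers (limma adjusted p = 0.0393) and by 1.29 ± 0.18 in control livers (adjusted p = 0.000304). The control call held under all 29 alternatives, whereas the null call was lost without null tunicamycin replicate 2 and in 7 other fits that left out 1 array. Tfe3 rose by 0.40 ± 0.13 in control livers (adjusted p = 0.0448) and gave 0.24 in null livers, and Tfeb, whose probe set was dim at 4.28 to 5.67 in all arrays, gave 0.21 ± 0.30 and 0.42 ± 0.30 and did not pass.

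Lamp1 and Lamp2 are the abundant glycoproteins of the lysosomal membrane. Lamp2 read 12.40, 12.55 and 12.45 in null tunicamycin livers and 12.43, 12.33 and 12.48 in control tunicamycin livers, against 12.78, 12.86 and 12.89 in null vehicle livers and 12.84, 12.89 and 12.88 in control vehicle livers. The vehicle arrays all lay above the tunicamycin arrays within a narrow range, and Lamp2 fell by 0.38 ± 0.11 in null livers (limma adjusted p = 0.0413) and by 0.46 ± 0.11 in control livers (adjusted p = 0.0111). Lamp1 gave -0.16 and -0.30 and did not pass. Neither Lamp2 call held with array medians centred.

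Between genotypes under tunicamycin, 1 of the 33 genes was called, or 3.03%, against 4.33% of all genes (0.853% higher and 3.48% lower in null livers), and 8 had an unadjusted p under 0.05, against 16.1% of all genes. The gene was Atg13, lower in null livers by -1.19 ± 0.28 (limma adjusted p = 0.0362). That call was lost in 8 of the 12 fits that left out 1 array, each of the 6 tunicamycin arrays, control vehicle replicate 2 and null vehicle replicate 3, and the adjusted p ranged from 0.00347 to 0.135 over the 12. In the fit over all probe sets, where 2.28% of probe sets were called (0.266% higher, 2.01% lower), the same brightest probe set had an adjusted p of 0.0537. Without null tunicamycin replicate 2 the adjusted p of Atg13 was 0.0721, and the gene then called was Atg16l2, higher in null livers by 1.36 (adjusted p = 0.0281). The Gapdh 5' to 3' ratio averaged 0.401 ± 0.033 in null and 0.556 ± 0.029 in control tunicamycin livers (SD, n = 3 each, exact permutation p = 0.1), and with that ratio as covariate Atg13 gave -0.98 (limma adjusted p = 0.0826).

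A second Atg13 probe set, 1423794_at, separated the genotypes more sharply. It read 7.87, 8.19 and 7.78 in null tunicamycin livers and 9.20, 9.20 and 9.21 in control tunicamycin livers, against 7.13, 7.0 and 7.10 in null vehicle livers and 7.32, 7.22 and 7.12 in control vehicle livers. The tunicamycin groups lay apart from each other and from both vehicle groups. It was lower in null than in control tunicamycin livers by -1.26 ± 0.14 (limma adjusted p = 0.00079), and this held under all 23 alternatives run on probe sets. It rose by 0.87 ± 0.14 in null livers (adjusted p = 0.00236) and by 1.99 ± 0.14 in control livers (adjusted p = 3.3e-06). The remaining Atg13 probe set passed in no comparison.

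Wipi1 supplied the other 2 probe sets called between genotypes under tunicamycin, 1438709_at at -1.04 ± 0.19 (limma adjusted p = 0.0122) and 1424917_a_at at -1.32 ± 0.26 (adjusted p = 0.0179), both lower in null livers. Each lost its call without control tunicamycin replicate 1 or 2 or null tunicamycin replicate 1, and 1424917_a_at also without null tunicamycin replicate 2. The count of 3 member probe sets was 1 when null tunicamycin replicate 1 or control tunicamycin replicate 1 or 2 was left out, and 5 when null vehicle replicate 1 was. Probe set 1456624_at gave -1.03 ± 0.27 and did not pass (adjusted p = 0.0869), and the brightest gave -0.07. Mitf gave -0.62 ± 0.18 (adjusted p = 0.0947) and Rb1cc1 -0.37 ± 0.11 (adjusted p = 0.0987) between the genotypes under tunicamycin, with the null arrays below the control arrays for each, and did not pass.

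With vehicle, 0 of the 33 genes and 0 of the 79 probe sets differed between genotypes in limma, and 0% of all genes were called. At an unadjusted p under 0.05 there were 2 members, Ulk2 at -0.50 and Rb1cc1 at -0.25, and 578 of all genes. No second tool was run.

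The test of whether the tunicamycin response differed between genotypes called 0 of the 33 genes by limma, against 0.896% of all genes (0.0215% higher, 0.874% lower), with 3 members, against 8.49% of all genes, at an unadjusted p under 0.05: Nbr1 at -0.48, Mitf at -0.68 and Atg13 at -0.88 (null response minus control response). Over all probe sets, where 0.378% were called (0.0114% higher, 0.366% lower), 2 member probe sets passed. Wipi1 1438709_at rose less in null livers, by a difference of -1.70 ± 0.27 (adjusted p = 0.0274), and Atg13 1423794_at by -1.12 ± 0.20 (adjusted p = 0.0436). In fits that left out 1 array the adjusted p of the interaction ranged from 0.0328 to 0.106 for Wipi1 1438709_at, which lost the call in 9 of 12, and from 0.0216 to 0.141 for Atg13 1423794_at, which lost it in 11 of 12 and kept it without null tunicamycin replicate 2.

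Genes of the same pathways outside the 33 came from 6 lists with 149 names, of which 139 were tested. In null livers 10 rose and 16 fell (18.7%, against 17.8% of all genes, median -0.13), and in control livers 17 rose and 28 fell (32.4%, against 26.2% of all genes, median -0.18). The direction of the split depended on the scaling: with array medians centred 12 rose and 6 fell in null livers, and 23 rose and 14 fell in control livers. These are 12.9% and 26.6% of the tested names, against 14.3% and 23.8% of all genes. Of all called genes 64.5% and 64.1% were then higher. Without null tunicamycin replicate 2, 9 rose and 19 fell in null livers (20.1%, against 16.1% of all genes), and 17 rose and 35 fell in control livers (37.4%, against 29.4%). Of the 38 lysosomal luminal proteins tested, mostly hydrolases, 1 rose and 5 fell in null livers (15.8% called), and 1 rose and 10 fell in control livers (28.9%), shares near those of all genes, with medians of -0.25 and -0.38. With array medians centred 2 fell in null livers, where Arsa, Gm2a and Naglu no longer passed, and 4 fell in control livers. The shares called were then 7.89% and 13.2%, against 14.3% and 23.8% of all genes. Without null tunicamycin replicate 2, 8 fell in null livers (23.7% called, against 16.1% of all genes) and 15 in control livers (42.1%, against 29.4%). Medians of the Kupffer cell and macrophage markers, cells rich in lysosomes, were -0.52 and -0.48, and their part in these falls was not tested. Falls included Gusb, which encodes β-glucuronidase, by 1.20 ± 0.19 in null and 1.15 ± 0.19 in control livers (limma adjusted p = 0.00112 and 0.000785), and the phospholipase gene Pla2g15, by 1.21 ± 0.18 and 0.92 ± 0.18 (adjusted p = 0.000887 and 0.00269). The β-galactosidase gene Glb1 fell by 1.11 ± 0.24 in control livers, a call lost with the actin ratio as covariate, and gave -0.62 in null livers (adjusted p = 0.0978), or -0.96 without null tunicamycin replicate 2 (adjusted p = 0.00198). Gm2a, for an activator of ganglioside breakdown, fell by 0.68 ± 0.19 in null livers (adjusted p = 0.0257), a call lost with array medians centred, on values as deposited, with the actin ratio as covariate and in 4 of the 12 fits that left out 1 array. The cathepsin gene Ctsl was the member that rose, by 0.62 ± 0.12 in null and 0.53 ± 0.12 in control livers.

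In the lysosomal membrane list, 1 of 15 rose and 1 fell in null livers and 2 rose and 3 fell in control livers. These are 13.3% and 33.3%, against 17.8% and 26.2% of all genes. With array medians centred the shares were 6.67% and 20%, against 14.3% and 23.8% of all genes. Npc1, the cholesterol exporter of the lysosome, rose by 1.34 ± 0.17 in null and 1.44 ± 0.17 in control livers (limma adjusted p = 0.000231 and 6.63e-05), and Slc17a5, the sialic acid exporter, fell by 0.65 ± 0.17 in each. Both Slc17a5 calls were lost with array medians centred, on values as deposited and with the actin ratio as covariate. The null call was also lost without null tunicamycin replicate 3 or null vehicle replicate 1, and the control call without control tunicamycin replicate 2 or 3 or control vehicle replicate 2. Of 15 subunits of the v-ATPase, the proton pump of the lysosome, 2 rose in null livers (13.3%) and 3 in control livers (20%), and none fell over all 12 arrays. Both shares lie below the 17.8% and 26.2% of all genes. Atp6v0e rose by 0.79 ± 0.16 in null and 0.52 ± 0.16 in control livers, and Atp6v1b2 by 0.80 ± 0.20 in null livers (limma adjusted p = 0.0168). In the fit over all probe sets, Atp6v0d1 rose by 0.87 ± 0.22 in control livers (limma adjusted p = 0.0192). It gave 0.09 ± 0.22 in null livers and did not pass there (adjusted p = 0.859). The Atp6v0e call in control livers was lost in each of the 6 fits that left out 1 control array. The Atp6v1b2 call was lost without null tunicamycin replicate 2 (0.62, adjusted p = 0.0511), without null vehicle replicate 1 and without null vehicle replicate 3.

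Atp6v1a, for the catalytic subunit of the pump, read 8.77, 11.02 and 8.67 in null tunicamycin livers and 8.88, 9.0 and 8.65 in control tunicamycin livers, against 9.47, 9.67 and 10.20 in null vehicle livers and 10.21, 9.89 and 10.01 in control vehicle livers. Every tunicamycin array but null replicate 2, the array with kidney transcripts, lay below every vehicle array. Over the 12 arrays it gave -0.29 ± 0.48 in null livers (limma adjusted p = 0.730) and -1.19 ± 0.48 in control livers (adjusted p = 0.0906). Without that array it fell by 1.06 ± 0.21 in null livers (adjusted p = 0.00575) and by 1.19 ± 0.19 in control livers (adjusted p = 0.000617).

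Among 20 other autophagosome genes, 1 rose and 3 fell in null livers and 4 rose and 4 fell in control livers. These are 20% and 40%, against 17.8% and 26.2% of all genes. With array medians centred 1 rose and 2 fell in null livers, and 5 rose and 2 fell in control livers. The shares were then 15% and 35%, against 14.3% and 23.8% of all genes. Epg5, a tether for fusion with the lysosome, rose by 1.18 ± 0.23 in null and 1.66 ± 0.23 in control livers (limma adjusted p = 0.00404 and 0.000221), and Atg101, the partner of Atg13 in the initiation complex, fell by 0.90 ± 0.21 and 1.15 ± 0.21 (adjusted p = 0.0129 and 0.00184). Among 19 other selective receptors, 2 rose and 2 fell in null livers and 2 rose and 3 fell in control livers. These are 21.1% and 26.3%, shares near the 17.8% and 26.2% of all genes. The mitophagy receptor Fundc1 rose by 0.97 ± 0.17 in null and 1.29 ± 0.17 in control livers, and Stbd1, which binds glycogen, by 1.52 ± 0.19 and 1.24 ± 0.19. The ER-phagy receptor Atl3 fell by 0.59 ± 0.16 and 1.00 ± 0.16. Its null call was lost with array medians centred, on values as deposited, with the actin ratio as covariate and in 3 of the 12 fits that left out 1 array, and that of Atg101 without null vehicle replicate 3 (adjusted p = 0.0542) and on values as deposited.

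The list of 32 genes of mTORC1 and nutrient sensing, the kinase that restrains autophagy and its regulators, held the largest changes of the 6 lists. In null livers 3 rose and 5 fell (25%, against 17.8% of all genes). In control livers 5 rose and 8 fell (40.6%, against 26.2%). With array medians centred 5 rose and 2 fell in null livers (21.9%, against 14.3% of all genes). That scaling gave 10 rises and 5 falls in control livers (46.9%, against 23.8%). Ddit4, an inhibitor of mTORC1, rose by 1.35 ± 0.38 in null and 2.63 ± 0.38 in control livers (limma adjusted p = 0.0281 and 0.00031). With tunicamycin the genotypes overlapped, at 11.67, 11.65 and 12.02 in null and 11.82, 11.89 and 12.04 in control livers. With vehicle Ddit4 read 10.60, 10.25 and 10.44 in null livers. The control vehicle arrays were spread widely, at 8.18, 10.22 and 9.45. The difference between the responses did not pass. The null call of Ddit4 was lost in 5 of the 12 fits that left out 1 array, those without null tunicamycin replicate 1 or 3 or any null vehicle array (largest adjusted p = 0.0867). The 3 sestrin genes, whose proteins restrain mTORC1, did not move together: Sesn2 rose by 2.37 ± 0.21 in null and 1.57 ± 0.21 in control livers (adjusted p = 2.44e-05 and 0.000207), while Sesn1 fell by 1.16 ± 0.24 and 1.08 ± 0.24 and Sesn3 by 1.17 ± 0.17 and 1.18 ± 0.17. In null livers the Sesn1 change ran from -1.40 to -0.51 over the fits that left out 1 array. Its call was lost without null tunicamycin replicate 1, without null vehicle replicate 3, with array medians centred and on values as deposited. Those fits chose the brightest probe set anew, so the range and the lost calls can come from different probe sets of Sesn1. With all 12 arrays Sesn1 read 8.34, 7.62 and 7.96 in null livers with tunicamycin and 9.28, 8.68 and 9.47 with vehicle. In control livers the Sesn1 call was lost with the actin ratio as covariate. Fnip2, for a partner of folliculin, fell by 0.88 ± 0.22 in null and 1.59 ± 0.22 in control livers, and the null call was lost with the actin ratio as covariate and in 4 of the 12 fits that left out 1 array.

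**Figure D4:**
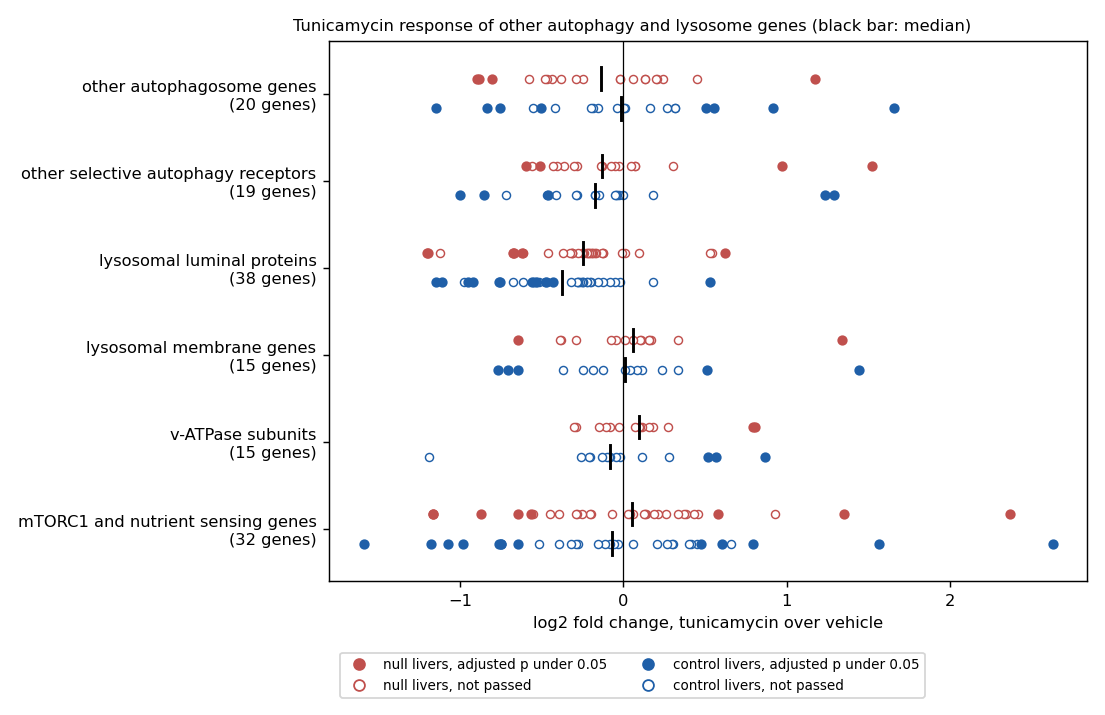
Log2 fold change of tunicamycin over vehicle (x axis) for the 139 tested genes of 6 further lists (rows), 1 point per gene, with null livers in red above control livers in blue, filled points at adjusted p under 0.05 and black bars at list medians. The luminal proteins have the lowest medians, -0.25 in null and -0.38 in control livers, and the sensing genes reach farthest right, with Sesn2 at 2.37 in null livers and Ddit4 at 2.63 in control livers.

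Of the 139 genes, 3 were called between genotypes under tunicamycin (2.16%, against 4.33% of all genes). Sesn2 was higher in null livers by 1.05 ± 0.21 (limma adjusted p = 0.0149), reading 9.05, 9.41 and 9.48 in null tunicamycin livers against 8.67, 8.12 and 8.01 in control tunicamycin livers. Its dimmer probe set gave 0.20 and did not pass. Fnip2 was higher in null livers by 0.87 ± 0.22 (adjusted p = 0.0480), a call lost without null tunicamycin replicate 2 (adjusted p = 0.127) and in 7 other fits that left out 1 array. The v-ATPase subunit Atp6v0d1 was lower in null livers by -1.03 ± 0.22 (adjusted p = 0.0196), reading 9.90, 10.53 and 10.17 in null tunicamycin livers against 11.04, 11.43 and 11.21 in control tunicamycin livers. Its groups did not overlap, and its call was lost without null tunicamycin replicate 1 or 3 or control tunicamycin replicate 2 or 3. The Sesn2 call was lost without null tunicamycin replicate 3 or control tunicamycin replicate 2 or 3. With vehicle, and in the test of the difference between responses, 0 of the 139 passed in limma, with 6 and 8 at an unadjusted p under 0.05.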

How the data were processed

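Liver RNA from 12 mice was extracted with Trizol and hybridised as biotin-labelled cRNA to Affymetrix arrays, per the labels' protocols. The authors deposited 1 linear intensity per probe set and array; how they were summarised or scaled was not stated in the labels. Of 45101 probe sets, 64 controls were left out, 34945 had 1 gene symbol in the platform annotation, and 932 with several and 9160 with none were not used. The deposited intensity was transformed to log2(value + 16) and quantile normalized. The 30% dimmest probe sets were left out and the probe set with the highest mean stood for each gene, leaving 13952 genes. Group means were fitted with limma 3.58.1 (lmFit, eBayes, 8 residual degrees of freedom) in R 4.3.3, data.table package version 1.17.8, with Benjamini-Hochberg adjustment over all genes in each of 5 contrasts. A second fit took all 34945 probe sets with no filter.

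The 33 members and the lists were chosen with earlier results of these data known. Members were named with array values when among the 5 largest called changes of a contrast or called in the interaction; array values of Gabarapl1, Lamp2, Nbr1, Atp6v1a and the genotype calls outside the 33 were added after their values had been seen. From other lists up to 3 called genes each way were named. Of the names in these lists and the cell marker lists, 19 are not analysed here and 2 were matched by newer symbols. Replicate numbers are not linked across groups by any label and were not used as pairs; same-number correlations of deviations from the group mean ran from -0.42 to 0.50. Alternatives were pseudocounts of 1 and 64, other normalizations, filters, probe set rules and variance models, 5' to 3' ratios as covariates, a 2-fold threshold, the replicate block and leaving out each array. Where an alternative changed the values or the arrays, the brightest probe set of each gene was chosen anew. The filter over all probe sets and the most variable probe set of a gene were chosen after seeing the data. The limma fit was tested on simulated data with known changes. The normalization, the filter and the choice of probe set were not tested that way. Plots used matplotlib 3.10.9 (Python 3.11.15).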

Additional observations from a re-analysis of the deposited data

Results flagged for a closer look

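The interaction term of limma over all probe sets passed for 2 probe sets over the 12 arrays, and for 0 with the actin ratio as covariate, at a pseudocount of 1 and on values as deposited. Wipi1 probe set 1438709_at rose by 0.68 in null livers and 2.38 in control livers, an interaction of -1.70 ± 0.27 (adjusted p = 0.0274). Atg13 probe set 1423794_at rose by 0.87 in null livers and 1.99 in control livers, an interaction of -1.12 ± 0.20 (adjusted p = 0.0436). The calls were lost in 9 and 11 of the 12 fits that left out 1 array. Neither is the brightest probe set of its gene.

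Nbr1 probe set 1448343_a_at was picked from the 79 member probe sets by its pattern. Every null tunicamycin array lay below every null vehicle array (-0.30) and every control tunicamycin array above every control vehicle array (0.18). How many of all probe sets have that pattern was not counted. The other Nbr1 probe set, 1451897_a_at, overlapped between treatments in both genotypes. The interaction of 1448343_a_at was -0.48 ± 0.18 and did not pass over all probe sets (limma adjusted p = 0.569).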

How the results depend on the processing

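Calls of Atg13, Sqstm1 and Mitf in control livers and of Atg13 and Sqstm1 in null livers held under all 29 alternatives. The other 6 of 9 and 10 of 12 calls were each lost under at least 1, as was the Atg13 call between genotypes. The counts that moved by more than 1.5 times follow, genes first, with the share of all genes called in brackets. In null livers, 12 (17.8%) became 4 with the actin ratio as covariate (13.2%), 7 with medians centred (14.3%) and 3 at 2-fold (6.3%). It became 6 with the most variable probe set (10.7%) and 3 with only the groups compared (11%), and leaving out 1 array gave 2 to 12 (11.8% to 17.7%). In control livers, 9 (26.2%) became 3 with the actin ratio (13.1%) and 4 at 2-fold (10.1%), and leaving out 1 array gave 5 to 10 (18.9% to 29.4%). Between genotypes with tunicamycin, 1 (4.33%) became 7 with array quality weights (9.58%), 0 at a pseudocount of 1 (3.65%) and 2 at 64 (5.12%). It became 2 without _x_at and _s_at probe sets (4.33%), and leaving out 1 array gave 0 to 2 (2.03% to 4.28%). For the interaction, 0 (0.896%) became 1 with the most variable probe set (0.291%) and 1 without _x_at and _s_at (0.811%), and 0 when leaving out 1 array (0.143% to 0.947%). For the probe set counts, shares of all probe sets under the alternatives were not counted. Among probe sets in null livers, 8 became 4 with the actin ratio, 2 at 2-fold, 3 with only the groups compared, 4 at a pseudocount of 1 and 15 at 64, and leaving out 1 array gave 3 to 7. In control livers, 14 became 6 with the actin ratio, 8 at 2-fold and 9 at a pseudocount of 1, and leaving out 1 array gave 8 to 16. Between genotypes with tunicamycin, 3 became 5 with weights, 5 with only the groups compared, 1 at a pseudocount of 1 and 7 at 64, and leaving out 1 array gave 1 to 5. For the interaction, 2 became 0 with the actin ratio, 1 with the Gapdh ratio, 0 at a pseudocount of 1, 1 with the trend and robust options and 0 on values as deposited, and leaving out 1 array gave 0 to 2. The replicate block, on numbers that no label links, gave 8 genes in null livers (15.7%), 8 in control livers (24.4%) and 1 between genotypes with tunicamycin (3.25%). It gave 0 with vehicle (0.00717%), 0 in the interaction (0.43%), and 1 probe set in the interaction. Directions turned with the most variable probe set for Atg4c (0.16), Atg5 (0.0074) and Atl3 (0.57) in null livers and Prkaa2 (0.44) in control livers. For Wipi1 they turned in null livers (0.68) and control livers (2.38) with that choice and without _x_at and _s_at, and in control livers with the mean of the probe sets (0.89). The median of all genes in null livers was -0.07 after quantile normalization, 0.02 with medians centred and 0.09 as deposited, and in control livers -0.11, -0.01 and 0.02. The causes were not tested. The number of arrays and signal over background limit dim probe sets such as that of Tfeb.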
